A study of Mus musculus with 2 samples.

Results

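The 996 regions described here are intergenic peaks of H3K27me3, trimethylation of histone H3 at lysine 27, that lay 5 to 50 kb from the nearest protein-coding gene in mouse sciatic nerve. They were chosen by position and width alone from the 6018 deposited peaks, of which they made up 16.55% (exact 95% Clopper-Pearson interval 15.62 to 17.51). A member peak was at most 5 kb wide, overlapped no protein-coding gene of the RefSeq annotation, lay more than 5 kb and at most 50 kb from the nearest end of such a gene, and lay more than 2 kb from every end of a long non-coding RNA (lncRNA) gene. Position and width of the called peaks are therefore properties of the choice and not findings.

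The series consists of 1 ChIP-seq library made with an H3K27me3 antibody and 1 input library, both from C57/BL6 mice, male and 8 weeks old, whose sciatic nerve was taken, with no treatment, injury or engineered allele named in the labels. Nerve was minced in formaldehyde whole, and whole nerve holds Schwann cells, fibroblasts, vessels and immune cells. The sources used here do not say how many animals a library came from, and input values were not analysed here. With 1 ChIP library no value could be set against variation between animals, no test was made, and the intervals below cover counting error only.

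H3K27me3 is deposited by Polycomb repressive complex 2 and is a hallmark of genes held silent. It often covers the genes of developmental transcription factors in cells that do not use them, and it can spread from CpG-rich sites into flanking chromatin. In Schwann cells, the glia that wrap the axons of peripheral nerve, Polycomb is known to restrain genes that are switched on after nerve injury.

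A few members lay over small RNA genes or internal lncRNA start sites, and their sequences are printed first because they name what such an intergenic peak covers. RefSeq (GRCm38.p6, the build also called mm10) gave mature sequences for 7 of the 8 microRNA genes within 2 kb of a member. Of these, 3 belong to the miR-183 cluster, whose microRNAs are best known from sensory organs and sensory neurons. A member of 24 reads (chr6:30168966-30170018) overlapped Mir96 and Mir183, and another of 11 reads (chr6:30165122-30165621) ended 296 bp from Mir182. All 3 genes lie on the minus strand, and both members lie inside the lncRNA gene Mirc35hg. A member of 62 reads (chr2:180892510-180895204) overlapped Mir124a-3, a gene of the neuronal microRNA miR-124. A member of 25 reads overlapped Mir7230 (chr5:113337097-113338705) and one of 10 reads overlapped Mir1983 (chr13:21896509-21897008), whose annotated span contains the tRNA gene n-TItat14, so this member counts at both kinds of gene. A member of 13 reads lay 112 bp from Mir7-2 (chr7:78888486-78889116), outside any protein-coding gene like all members. The mature sequences below run 5′ to 3′ with the seed, bases 2 to 8, in capitals.
miR-96-5p: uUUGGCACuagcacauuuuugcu
miR-183-5p: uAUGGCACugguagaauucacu
miR-182-5p: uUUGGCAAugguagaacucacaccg
miR-7a-5p: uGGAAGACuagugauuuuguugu
miR-1983: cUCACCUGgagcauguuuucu
miR-7230-5p: aGACUGCUguuucucugaguggc
The 13 mature sequences of the 7 genes carried 13 different seeds, so none was shared. The seeds of miR-96-5p, miR-183-5p and miR-182-5p had the 5 bases UGGCA in common.

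Only 2 annotated promoter windows, 250 bases before to 50 after a transcript start, lay wholly inside a member peak, and both belonged to internal starts of lncRNA genes. The first was in Mir9-3hg, the host gene of a microRNA of neural progenitors (chr7:79515185-79515484, GRCm38.p6, plus strand), within a member of 1772 bp and 52 reads. The second was in the lncRNA gene Gm34099 (chr8:57410180-57410479, plus strand), within a member of 945 bp and 23 reads. In the sequences below, CG dinucleotides are in capitals.
Mir9-3hg: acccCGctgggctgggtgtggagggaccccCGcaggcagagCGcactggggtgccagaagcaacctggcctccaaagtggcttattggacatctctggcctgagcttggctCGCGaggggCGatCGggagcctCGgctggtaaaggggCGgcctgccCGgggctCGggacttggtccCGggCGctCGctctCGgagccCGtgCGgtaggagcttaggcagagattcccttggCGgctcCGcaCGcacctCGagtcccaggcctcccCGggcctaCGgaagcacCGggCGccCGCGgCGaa
Gm34099: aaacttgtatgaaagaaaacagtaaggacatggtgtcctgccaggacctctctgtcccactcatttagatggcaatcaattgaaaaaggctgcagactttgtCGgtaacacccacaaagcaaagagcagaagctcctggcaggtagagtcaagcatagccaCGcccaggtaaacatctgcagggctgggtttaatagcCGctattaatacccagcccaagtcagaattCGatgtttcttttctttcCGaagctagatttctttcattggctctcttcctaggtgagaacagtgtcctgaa
The Mir9-3hg window held 28 CG dinucleotides and 70.67% G and C, and 14.18% of the 32851 promoter windows in the table held at least as many. The Gm34099 window held 5 CG dinucleotides and 45.67% G and C, near the median of 7 CG per window (quartiles 3 and 20). The mark was therefore called over both a CG-rich and an ordinary window.

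The members were mostly narrow peaks close to the lowest score of the list. Each deposited score was a multiple of 2.5735 in 99.83% of peaks (tolerance 0.05), so scores were read as whole reads, with the lowest score, 25.7, standing for 10 reads. The members held a median of 11 reads (quartiles 10 and 18, highest 114) and a median width of 500 bp (upper quartile 806.2 bp, widest 4531 bp). The shortest width in the list, 500 bp, was the width of 551 members (55.32%), and 499 (50.1%) held 10 or 11 reads. Over all 6018 peaks these shares were 41.63% and 36.71%, and for intergenic peaks beyond 50 kb from genes they were 60.64% and 53.68%. Chromatin had been sonicated to 0.5 to 2 kb, which limits how finely a peak is placed. For 10 reads, the exact 95% Poisson interval runs from 4.795 to 18.39. In all, the members covered 820.9 kb and held 17743 reads, 9.579% of the reads in all peaks. Their read density, 21.62 reads per kb, lay beside 22.88 for the 2145 peaks within 2 kb of a gene end and 22.0 for the 1490 peaks deeper inside genes.

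**Figure D1:**
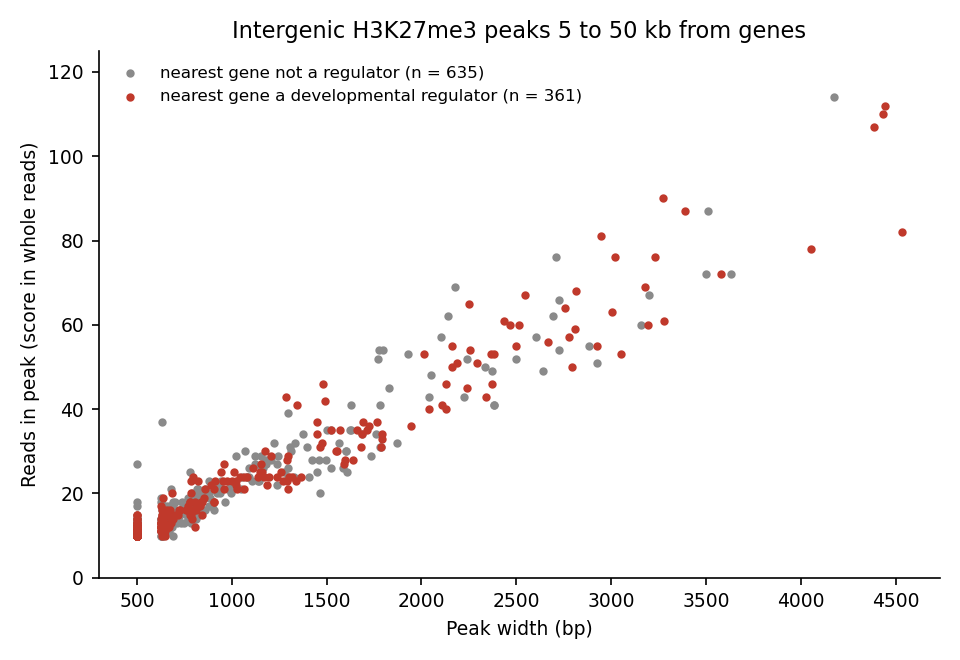
Width of each of the 996 member peaks in bp against its score read as whole reads, with members nearest a developmental regulator in red and all other members in grey. Reads rise with width, 551 members stand at the shortest width of 500 bp, and the highest member reaches 114 reads.

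Member peaks gathered around genes of developmental transcription regulators. Of the 996 members, 361 (36.24%, 33.25 to 39.32) had such a gene as the nearest protein-coding gene. These are homeobox, forkhead, Sox, T-box, Gata, basic helix-loop-helix (bHLH), zinc finger and other transcription factors, assigned by symbol. Of all bases that the rule admits (476.8 Mb), only 4.394% had a regulator as the nearest gene. In density this was 17.23 members per Mb of admitted bases near regulators (15.5 to 19.1) and 1.393 near all other genes (1.287 to 1.506). Admitted bases include stretches to which reads cannot be mapped, which were not removed. Peaks at the same locus are not independent, so the intervals given here and for classes and distances below are too narrow.

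Homeobox genes, which encode factors that set body position and cell identity, had the highest density, 31.2 members per Mb (27.17 to 35.65) from 216 members. T-box genes, regulators of mesoderm and limb, followed at 23.54 per Mb from 16 members, and forkhead genes at 15.41 from 26. Sox genes stood at 13.02 per Mb from 12 members, bHLH genes at 12.23 from 33, and Gata genes at 11.32 from 4 members. The intervals of these 5 classes overlapped one another, so no order can be read among them, and those of T-box and Gata genes also overlapped the homeobox interval. Zinc finger regulators stood at 7.775 per Mb and the remaining transcription regulators at 6.362, with intervals above the 2.089 per Mb of all admitted bases. Secreted signals (1.623 per Mb), neuronal channels, receptors and transporters (1.942) and adhesion or matrix genes (2.135) had intervals that included that overall density. Chemosensory receptors, the large families of smell and taste receptor genes, were lowest at 0.171 per Mb, with 5 members in 29.24 Mb.

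**Figure D2:**
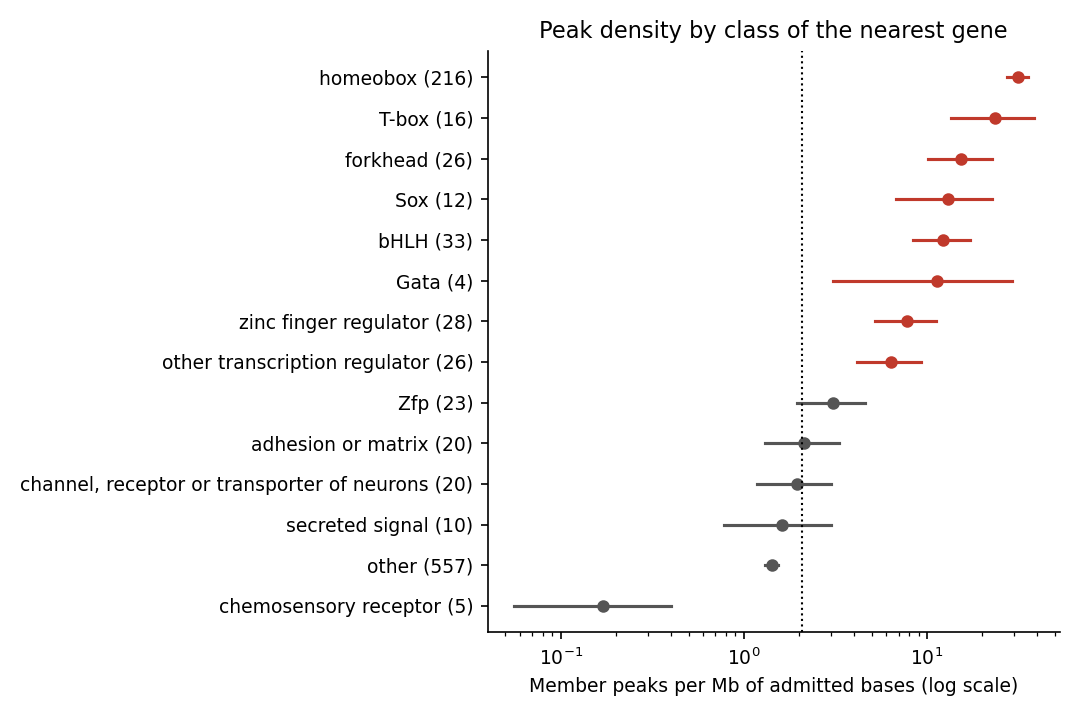
Member peaks per Mb of admitted bases on a log scale, by class of the nearest protein-coding gene, with the number of members in brackets, exact 95% Poisson intervals as bars and the density over all admitted bases, 2.089 per Mb, as a dotted line. The 8 regulator classes in red lie to the right of the line, from 6.362 to 31.2 per Mb, and chemosensory receptors lie to its left at 0.171.

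Within the 5 to 50 kb range, members near regulators became sparser with distance. Their density was 39.76 per Mb at 5 to 10 kb (33.24 to 47.18), 21.45 at 10 to 20 kb and 10.83 at 20 to 30 kb (8.035 to 14.27). Beyond that it was 7.543 at 30 to 40 kb and 8.476 at 40 to 50 kb, with intervals that overlapped that of the 20 to 30 kb bin. Around other genes the density lay between 0.9924 and 1.678 per Mb in all 5 bins, and it also declined, though not at every step. It was 1.678 per Mb at 5 to 10 kb (1.43 to 1.958), 1.383 at 10 to 20 kb and 1.558 at 20 to 30 kb. At 30 to 40 kb it was 0.9924 (0.7765 to 1.25), an interval below that of the 5 to 10 kb bin, and at 40 to 50 kb 1.178. At 40 to 50 kb the density near regulators (5.676 to 12.17) was still above that near other genes (0.9163 to 1.49). The median distance to the gene was 12.78 kb for members nearest a regulator and 18.02 kb for the others.

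**Figure D3:**
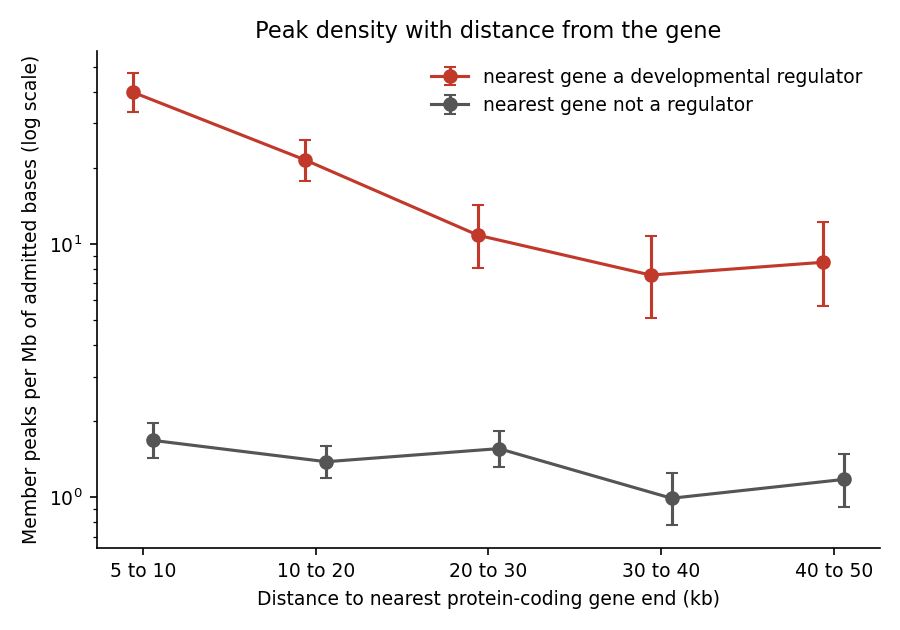
Member peaks per Mb of admitted bases on a log scale against distance to the nearest protein-coding gene end in kb, for regulators (red) and all other genes (grey), with exact 95% Poisson intervals. The red line falls from 39.76 to 8.476 per Mb and stays above the grey line, which lies between 0.9924 and 1.678.

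The nearest gene of a member often carried H3K27me3 itself. Marked genes are those with a peak within 2 kb of an annotated end, and 8.59% of all 21887 protein-coding genes were marked. Of the members, 526 (52.81%, 49.66 to 55.95) had a marked nearest gene, whereas 11.29% of admitted bases did. For members nearest a regulator the share was 347 of 361 (96.12%, 93.58 to 97.86), against 62.95% of the admitted bases nearest a regulator. For the other members it was 179 of 635 (28.19%, 24.72 to 31.86), against 8.921% of their bases. Counting any marked regulator within 100 kb, nearest or not, reached 423 members (42.47%) and 4.352% of admitted bases.

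Of the 15 members with the most reads, 11 were nearest a regulator and 14 lay within 10 kb of another peak. At the last place 3 members tied at 72 reads, nearest Hoxb13, Zfp184 and Tacc3, and order by position left out the last, whose nearest gene is unmarked and no regulator. The strongest beside a regulator held 112 reads (92.22 to 134.8) and lay 11625 bp upstream of Hoxa13, the most posterior gene of its Hox cluster (chr6:52272506-52276951). A member of 110 reads lay 5543 bp from Tfap2a, a factor of neural crest and skin, and one of 107 reads 7499 bp from Nr2e1, an orphan nuclear receptor of neural stem cells. Scrt2, a neuronal zinc finger repressor, had a member of 90 reads at 30341 bp, and Gata3, a factor of T cells and the sympathetic lineage, one of 87 reads at 6573 bp. Members of 82, 81 and 78 reads lay nearest the homeobox genes Nkx2-3, Gsx2 and Nkx2-1. The intervals of neighbours in this order overlap throughout. The zinc finger genes Sp8 and Sall1 had members of 76 reads each and the homeobox gene Hoxb13 one of 72. A member of 76 reads was nearest the predicted gene LOC102637806 and lay 8447 bp from Gbx2, a homeobox gene of the hindbrain.

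The remaining 3 of the 15 had an unmarked nearest gene that is no regulator. The single highest member of all, 114 reads (94.04 to 136.9) over 4174 bp, lay 5683 bp downstream of Fbxo2, which encodes a ubiquitin ligase subunit of neurons (chr4:148172104-148176277). Its nearest other peak was 40777 bp away and the nearest regulator, Casz1, 628088 bp away. The second, 87 reads, lay 47734 bp from the predicted gene Gm38821 on chromosome 6. The third, 72 reads, lay 25467 bp from Zfp184, a zinc finger gene of chromosome 13, beside tRNA genes described below.

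The members were spread over 589 nearest genes, 2.69% of the 21887 protein-coding genes. Of these, 412 had 1 member, 140 had 2 to 4 and 37 had 5 or more, and 21 of those 37 (56.76%) were regulators. Among the 560 regulator genes of the annotation 156 (27.86%) were the nearest gene of a member, and 330 (58.93%) were marked. Members flanked 47 genes on both sides, of which 33 were regulators. The homeobox class accounted for 80 of its 198 genes. By symbol, and chosen after their values were seen, the Nkx family had 20 members around 7 of 14 genes, the Hox genes 19 around 6 of 39, and the Irx genes 16 around 3 of 6. The Hox genes reached were Hoxa13, Hoxb1, Hoxb9, Hoxb13, Hoxc4 and Hoxc13, which is a statement about intergenic peaks only, since peaks that overlap Hox genes were outside the rule. The Lhx genes had 12 members around 5 of 8 genes, the Pax genes 11 around 3 of 9 and the Dlx genes 9 around 4 of 6. Every one of these Nkx, Hox, Irx, Lhx, Pax and Dlx nearest genes was marked itself.

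Several marked regulators had member peaks scattered around them, and most of these genes had a peak wider than 5 kb of their own. Exceptions were Sox1 and Nkx3-2, whose widest own peaks measured 4409 and 4392 bp. Uncx, a homeobox gene of the vertebral column, had 8 members with 225 reads, 2 on one side and 6 on the other, 11492 to 44707 bp away. The gene itself lay under a peak of 26408 bp with 821 reads. Sox1, a factor of neural progenitors, had 8 members with 184 reads, 7 of them beyond its end at 6443 to 45586 bp. Irx5 had 8 members with 143 reads and its neighbour Irx3 had 7 with 107, both homeobox genes of the heart and limb. Olig2, a bHLH factor of motor neurons and oligodendrocytes, had 8 members with 127 reads, 5 before and 3 after the gene. Nkx2-3, a homeobox gene of gut and spleen, had 6 members with 192 reads, Hoxc13 had 7 with 135, and Nkx3-2, a factor of cartilage, had 6 with 112. Most of these scattered members were weak. Around Irx5, for example, only 1 of the 8 held more than 16 reads, a peak of 2924 bp and 55 reads.

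In the other regulator classes the members were spread over 19 bHLH, 18 zinc finger, 15 other transcription regulator, 11 forkhead, 7 T-box, 3 Sox and 3 Gata genes, and 15 of the 19 bHLH genes had 1 member each. The genes with the most member reads in each class follow. Among bHLH genes, Hand2, a factor of the heart and sympathetic neurons, had the most reads, 228 in 5 members of 23 to 68 reads, followed by Olig2 with 127 and Tcf21, a factor of mesenchyme, with 61 in 1 member. Among forkhead genes Foxf2 had 129 reads in 5 members and Foxb1 81 in 5. Of the 16 T-box members, 6 lay nearest Tbx3 (105 reads), 4 nearest Tbx5 (88 reads) and 1 nearest Tbx20 (42 reads), genes of limb and heart. The other T-box members lay nearest Eomes (40 reads in 2), Tbx18 (17 in 1), Tbx21 (11 in 1) and Tbx15 (10 in 1), named after their values were seen. Gata3 had 99 reads in 2 members, whereas Gata6 had 20 and Gata4 10 in 1 member each. Nr2e1 had 217 reads in 5 members, Tfap2a 159 in 3 and the ETS factor Etv4 58 in 3. Of the zinc finger regulators, Sall1 had 110 reads in 4 members, Scrt2 100 in 2 and Sp8 76 in 1. Secreted signals had 10 members, 1 per gene, and those with the most reads lay near Bmp4 (29 reads), Nodal (22) and the semaphorin gene Sema6b (21). All of the genes named here were marked at an end of their own.

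Few members lay nearest to genes of nerve injury or myelin. On a list of 42 genes of nerve injury and repair, 4 were the nearest gene of a member (9.524%, 2.656 to 22.62), against 2.69% of all protein-coding genes, a share just inside the interval. At an end of their own 18 of the 42 were marked (42.86%), against 8.59% of all genes. Olig1, which Schwann cells switch on after injury, had 1 member of 21 reads at 12346 bp (chr16:91256515-91257422). Sox2, a factor of immature Schwann cells, had 3 members of 21, 10 and 11 reads at 6856 to 11505 bp. Sox11 and the growth factor gene Vegfa had 1 member of 10 reads each, the lowest number in the list. Olig1, Sox2 and Sox11 also belong to the regulator classes above, and 27.86% of all regulator genes were the nearest gene of a member. On a list of 39 myelin genes 1 was reached (2.564%), near the share of all genes, and 11 were marked. It was Pou3f2, a POU homeobox gene of premyelinating Schwann cells, with 2 members of 10 reads at 8627 and 12985 bp. No member was nearest any of the 12 Schwann cell markers (Pmp22, Mbp, Sox10 and others), and none was nearest a marker of fibroblasts (7 genes), vessels (6), immune cells (5), adipocytes and muscle (4) or neurons (4). At 2.69% of all genes, lists of this size cannot show a lower share. Marked at an end were 5 of the 12 Schwann cell markers, 1 of 7 for fibroblasts, 0 of 6 for vessels, 1 of 5 for immune cells, 1 of 4 for adipocytes and muscle and 4 of 4 for neurons, against 8.59% of all genes. The mark is not a measure of expression, so these counts do not check the tissue label.

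Most members had another peak nearby, as did most peaks of the list. Another peak of any kind lay within 10 kb of 631 members (63.35%, 60.27 to 66.35) and within 5 kb of 522 (52.41%). For 441 of the 631 (69.89%) the closest peak was itself a member. The rule's distance from gene ends partly fixes this share, and no expected share was computed. Among members nearest a regulator, 310 of 361 (85.87%, 81.85 to 89.3) had another peak within 10 kb, against 321 of 635 (50.55%, 46.59 to 54.51) of the others. Over all 6018 peaks the share within 10 kb was 60.32% (59.07 to 61.56), an interval that overlapped that of the members. It was 45.13% (40.72 to 49.6) beyond 50 kb from genes and 54.55% (52.41 to 56.67) within 2 kb of gene ends, both below the members, and 60.74% inside genes. It was 70.31% (64.98 to 75.27) at lncRNA ends, 77.78% (73.12 to 81.97) at 2 to 5 kb from genes and 94.12% for peaks wider than 5 kb. At the other extreme, 137 members (13.76%) lay over 100 kb from any other peak, a lower share than the 19.23% of all peaks.

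When peaks within 10 kb of each other were joined, the members fell into 632 runs. Single peaks made up 365 runs, 63 runs of 2 or more held members only (178 members), and 90 runs included a peak wider than 5 kb (235 members). The 31 runs with 5 or more members held 193 members. The run with the most, 12 members over 24.6 kb, lay on chromosome 6 between Npvf and Gm38821 (chr6:51171711-51196314), with 303 reads in members, and reached no gene end. On chromosome 17, 8 members with 245 reads lay beyond Camkmt, a methyltransferase gene (chr17:85464486-85493173), and the nearest regulator was Six3, a homeobox gene of the forebrain, at 120434 bp. On chromosome 5 a run of 7 members with 151 reads lay between Tacc3 and Fgfr3 and contained no other kind of peak. A run of 7 members with 238 reads lay between Ttll6 and Hoxb9, on both sides of Hoxb13. Chains of intergenic peaks thus also stood more than 100 kb from a developmental regulator. The distance was 959052 bp for the run beside Gm38821 and 246715 bp for that beside Tacc3. The run at Camkmt was closer, and Six3 is the gene that flanks it on the other side.

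**Figure D4:**
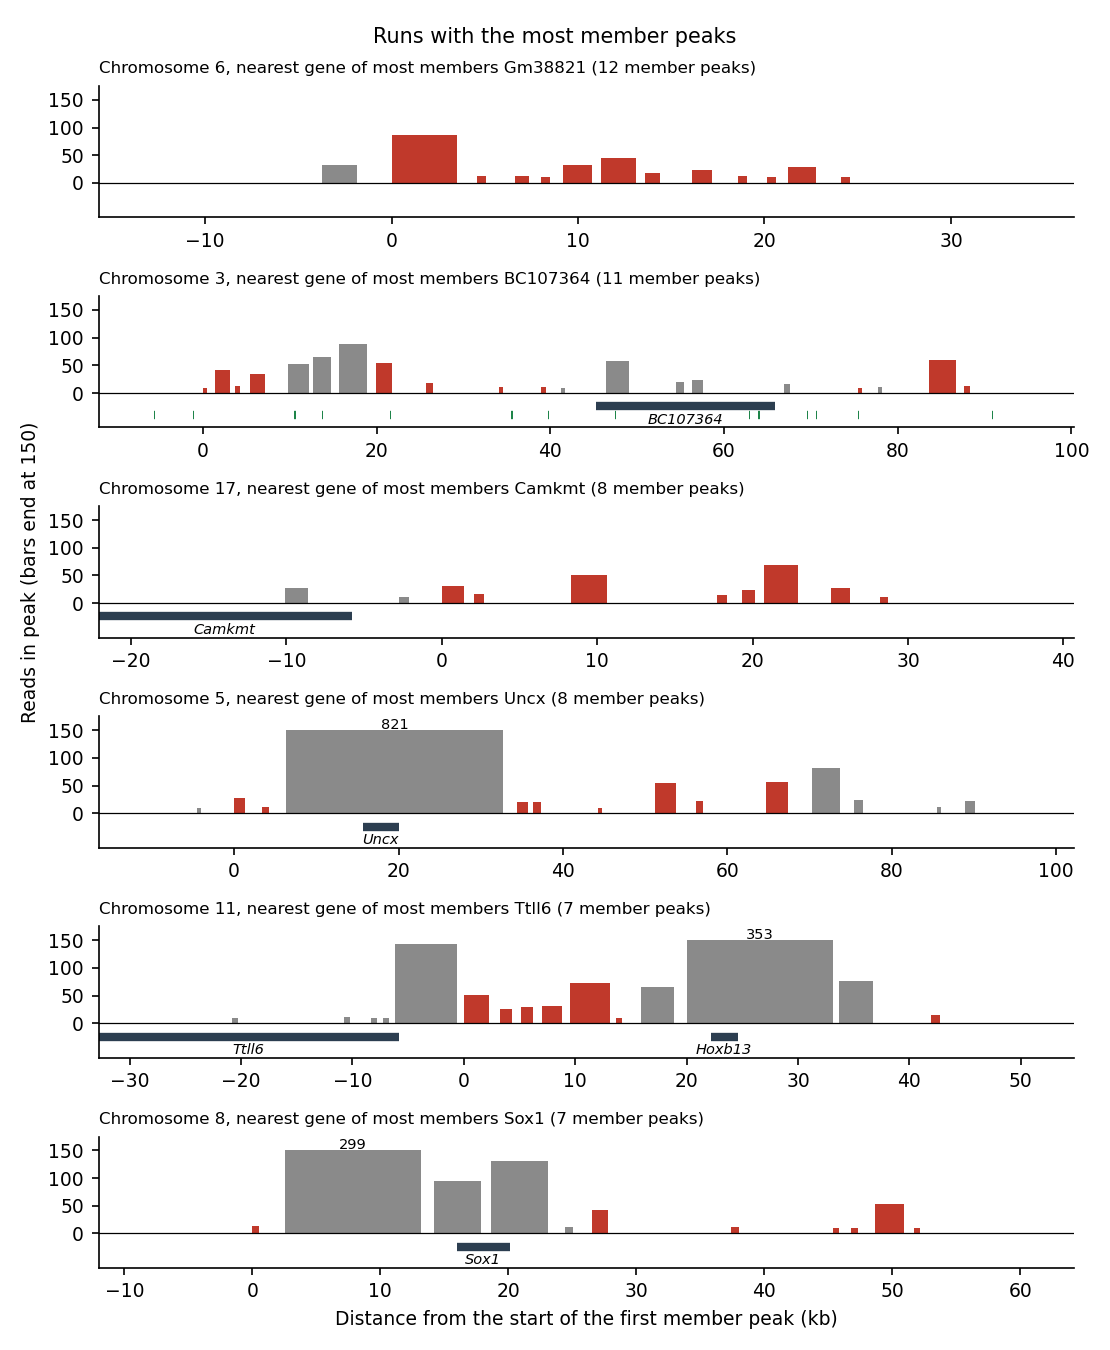
The 6 runs with the most member peaks (ties taken by member reads), each bar spanning a peak from start to end and as tall as its reads (bars end at 150, with the reads of taller peaks printed), members in red and other peaks in grey, protein-coding genes as dark bars and tRNA genes as green ticks, against distance from the first member in kb. The runs at Uncx, Hoxb13 and Sox1 surround peaks of 821, 353 and 299 reads, the run beside Gm38821 reaches no gene, and tRNA genes are interspersed along the run at BC107364.

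Transfer RNA genes, which RNA polymerase III transcribes, were another neighbour of member peaks. Of the members 31 (3.112%, 2.124 to 4.389) lay within 2 kb of a tRNA gene, against 0.09457% of admitted bases, and 11 overlapped one. They formed 12 groups in all, with 22 of the 31 members on chromosome 13, 7 on chromosome 3 and 2 on chromosome 1. The group with the most member reads lay on chromosome 13 before Zfp184 (chr13:21914403-21932144), with 5 members, 141 reads and 8 tRNA genes. On chromosome 3 the run at BC107364 held 11 members with 274 reads over 88.3 kb, of which 5 lay within 2 kb of tRNA genes. A member of 18 reads in that run overlapped Terc, the RNA component of telomerase (chr3:96414265-96415027), a gene named after its value was seen. Near microRNA genes lay 11 members (1.104%) against 0.07179% of admitted bases, in 5 runs. These groups sit at few loci, so their members are not independent. Transfer RNA genes exist in near-identical copies, and the placing of reads with several matches was not stated in the sources used here, so its part in these counts was not tested. Long non-coding RNA genes contained 166 members (16.67%, 14.4 to 19.13) at more than 2 kb from their ends, against 9.707% of admitted bases.

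Members with more reads were more often near a marked gene, a regulator and another peak. The share with a neighbouring peak within 10 kb was 53.71% for members of 10 or 11 reads, 62.83% for 12 to 19 reads, 83.33% for 20 to 49 and 90.0% for the 60 members of 50 reads or more. A regulator was the nearest gene of 31.26%, 33.83%, 45.83% and 61.67% in the same order. A marked nearest gene was found for 48.3%, 48.33%, 66.67% and 71.67%. The 2 classes under 20 reads had overlapping intervals in all 3 measures, and the 2 classes from 20 reads up likewise. The weakest members, at 10 or 11 reads, still had a regulator as nearest gene at 31.26% (27.22 to 35.53), above the 4.394% of admitted bases.

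**Figure D5:**
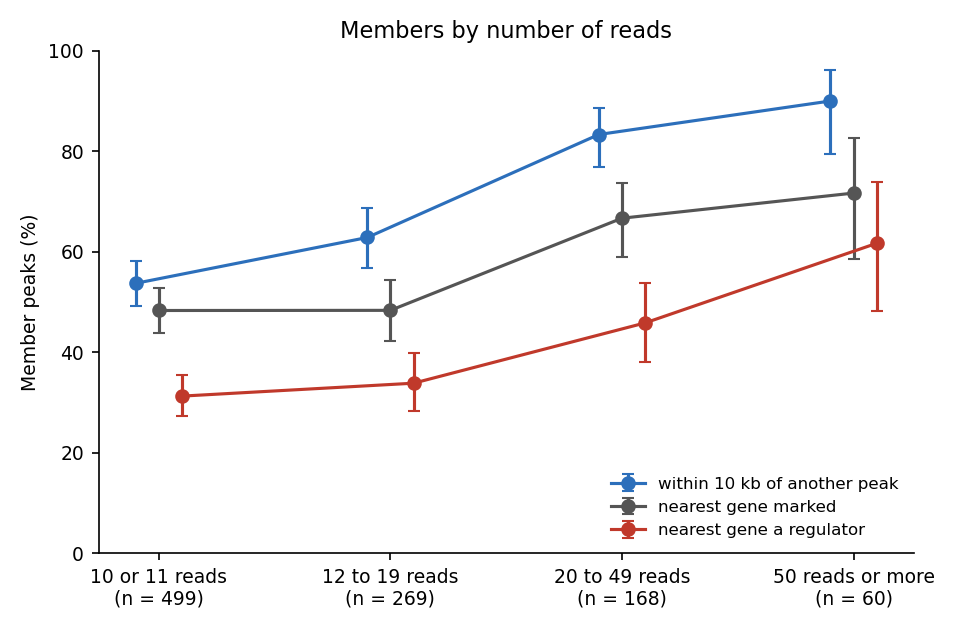
Percentage of members with another peak within 10 kb (blue), a marked nearest gene (grey) or a regulator as nearest gene (red), for members of 10 or 11, 12 to 19, 20 to 49 and 50 or more reads, with exact 95% Clopper-Pearson intervals. All 3 shares are higher from 20 reads up, and the lowest class already has 31.26% of members nearest a regulator.

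A large minority of members stood apart from both kinds of locus. For 406 (40.76%, 37.69 to 43.89) the nearest gene was unmarked and no marked regulator lay within 100 kb, a description that fits 87.35% of admitted bases. Whether such members have a near neighbour is partly fixed by this definition and is not compared. They were 500 bp wide in 60.84% of cases (55.9 to 65.61) and reached 20 reads in 15.52% (12.13 to 19.41), against 51.53% (47.41 to 55.63) and 27.97% (24.38 to 31.78) of the remaining 590. A pair of narrow members with many reads had unmarked nearest genes, both named after their values were seen. A peak of 630 bp near Rimbp3 held 37 reads (chr16:17222107-17222736) and one of 500 bp near Myl12b held 27 (chr17:70963515-70964014), with no other peak within 583597 and 72007 bp.

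Across chromosomes the members were uneven. The 19 autosomes averaged 2.437 ± 1.165 members per Mb of admitted bases (SD over 19 chromosomes), from 0.9928 on chromosome 14 to 5.576 on chromosome 19. The X chromosome had 3 members in 38.59 Mb, 0.07774 per Mb (0.6187 to 8.767 members), and the Y chromosome 0 in 20.76 Mb (0.0 to 3.689 members). The bound of 3 counts set for 0 members stands for 0.1445 per Mb on the Y chromosome. Male mice carry a single X and Y, and mappability of the sex chromosomes was not measured, so these densities are given as they stand.

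The share of regulators as nearest or host gene differed between the kinds of peak in the list, with the members in the middle. It was 36.24% for the members, below 83.82% (78.04 to 88.6) for the 204 peaks wider than 5 kb and 47.78% (42.52 to 53.08) for the 360 intergenic peaks at 2 to 5 kb. It was 38.12% (32.78 to 43.69) for the 320 intergenic peaks at lncRNA ends, an interval that overlapped that of the members. The share was lower beyond 50 kb (26.24%, 22.45 to 30.32), inside genes (20.13%, 18.12 to 22.26) and within 2 kb of gene ends (20.79%, 19.09 to 22.57). Among peaks of 500 bp only, it was 31.22% (27.37 to 35.27) for members, with overlapping intervals for peaks at 2 to 5 kb (33.33%), at lncRNA ends (27.66%) and beyond 50 kb (26.23%). At that width it was 15.59% (13.02 to 18.43) inside genes and 13.85% (11.23 to 16.82) at gene ends, both below the members. Peaks of 1 locus are not independent, so these intervals are too narrow. Peaks wider than 5 kb were set apart before location was considered, so the classes by location lack them. No background share of bases was computed for classes other than the members. These shares therefore do not rank the classes by their ties to regulators.

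The members just inside the bounds of the rule and the peaks just outside them were as follows. The 3 widest members measured 4434 bp (near Tfap2a), 4446 bp (near Hoxa13) and 4531 bp (near Nkx2-3), while the 5 peaks left out for width alone began with 5969 bp near Foxa2, 6211 bp near Cbx8 and 8194 bp near Rhbg. At 5 kb the closest members lay 5012 bp from Fezf1, 5030 bp from LOC102637806 and 5033 bp from Gsc, and the last peaks outside lay 4931 bp from Tbx20, 4977 bp from Eomes and 4982 bp from Nkx6-1. At 50 kb the farthest members, of 10 reads each, lay 49665 bp from Tmem33, 49735 bp from Bub3 and 49850 bp from Grik3. The first peaks beyond lay 50019 bp from Zfp64 (78 reads), 50155 bp from Clint1 (11 reads) and 50329 bp from Uncx (82 reads). At the lncRNA bound, members near Tmem33, Zfp184 and Zic5 lay 2010, 2044 and 2058 bp from a lncRNA end, and peaks near Lmx1b, Plagl1 and Neurod2 fell outside at 1963, 1976 and 1992 bp.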

How the data were processed

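H3K27me3 ChIP-seq and input were made from mouse sciatic nerve. Per the submitters' processing notes, the tool was Bowtie and the build mm10. Not given in the sources used here were the peak caller, its threshold, its use of the input, the read length and the sequencing depth. The authors deposited 1 peak list with a score for each peak. Scores were divided by 2.5735 and read as whole reads. A peak was assigned to the protein-coding gene with the nearest annotated end in RefSeq GRCm38.p6, whose gene table has no strand. Promoter windows gave a strand to the nearest gene of 75.5% of members, under the 80% needed, so the planned share upstream of genes was not computed. All 476.8 Mb that the rule admits were assigned to genes in the same way and served as background. Shares carry Clopper-Pearson and densities Poisson exact 95% intervals, and 0 members were set at up to 3 counts. Members, gene lists and classes were chosen with earlier results of these data known. Named in the text are the 15 members with the most reads, members over microRNA genes, the 3 members and 3 peaks nearest each bound, the 12 genes with the most members, nearest genes on the repair and myelin lists, and the 3 genes with the most member reads in each regulator class and among signals. Some genes that this rule takes are not reported here. Alternatives varied the rule's distances, the window at gene ends, the linking distance, the peak threshold and the counting unit. Scripts were tested on simulated data and used Python 3.11.15, numpy 2.4.6, pandas 2.3.3, scipy 1.17.1 and matplotlib 3.10.9.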

Additional observations from a re-analysis of the deposited data

How the results depend on the processing

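Members made up 16.55% of peaks, and 12.09% when peaks under the median score, 36.0, were dropped. They made up 11.68% when taken at 10 to 50 kb from genes and 14.34% with lncRNA ends over 5 kb away. The share of members with another peak near was 63.35% within 10 kb, 52.41% within 5 kb and 71.08% within 20 kb. It was 67.11% within 10 kb when only peaks of at least 20 reads were kept, both as members and as neighbours. The share with a marked nearest gene, 52.81%, was 56.83% with a 5 kb window, 57.3% at or above the median score, 49.08% for members 10 to 50 kb from genes and 45.57% with each run counted once. The share nearest a developmental regulator, 36.24%, was 43.51% at or above the median score, 50.0% at 20 reads or more, 32.72% at 10 to 50 kb, 26.49% with each nearest gene counted once and 28.96% with each run counted once. The lowest of the marked and regulator shares, 45.57% and 26.49%, were above the shares of the admitted bases under the main rule, 11.29% and 4.394%. Those base shares were not recomputed for each alternative, and the units differ, since 45.57% counts runs and 26.49% counts genes. Of all 21887 protein-coding genes, 560 were regulators. The cause of these shifts was not tested. Counting each run once, and the minimum of 20 reads, were chosen after seeing the data. The other alternatives stayed within the main interval, and the median of 11 reads was 12 on autosomes alone. Depth limits single members, since 50.1% rest on 10 or 11 reads. No paired analysis was possible because there is 1 ChIP library and no replicate. The share upstream of genes was not run because strand was known for too few nearest genes.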
